A study of Mus musculus with 6 samples.

Results

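The genes described here are 8 genes of blood vessel growth, chosen by name: the ligands Vegfa, Vegfc, Figf and Pgf, the receptors Flt1 and Kdr, and the vessel genes Angpt2 and Nos3. All 8 were among the 750 genes of the deposited table. They were measured in 3 TTFM and 3 Saline tumours of female mice, which the labels call CLDX mice without explaining the name. Every tumour was grown from 300000 cells of 4T1, a transplantable mammary carcinoma line of the mouse, placed in the left mammary fat pad. TTFM is a Thai traditional formulary medicine, given as extracts from 2 weeks after the cells, and Saline is the comparison group. No source used here gives the strain, age, dose or make-up of the extracts. The labels do not say whether each number marks a separate mouse, so the p-values measure the spread between these samples, which may be technical.

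Vascular endothelial growth factors (VEGFs) are secreted proteins that make endothelial cells divide, migrate and become leaky to plasma. VEGF-A, from Vegfa, signals mainly through the receptor tyrosine kinase encoded by Kdr, while Flt1 encodes a receptor that binds VEGF-A tightly, signals weakly and can act as a decoy. Placental growth factor, from Pgf, binds the Flt1 product and not the Kdr product. VEGF-C and VEGF-D, from Vegfc and Figf (now named Vegfd), are known for growth of lymphatic vessels. Angpt2 encodes angiopoietin-2, which antagonises angiopoietin-1 at the endothelial receptor Tie2 and loosens vessels, and Nos3 encodes endothelial nitric oxide synthase, an enzyme activated downstream of the Kdr receptor. Solid tumours depend on such signals for their blood supply.

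Totals ran from 333515 (TTFM replicate 3) to 449460 counts (TTFM replicate 2) per tumour. The 8 fibroblast and matrix marker genes summed to 48090 to 65177 normalized counts in TTFM tumours, against 42167, 84688 and 33761 in Saline replicates 1, 2 and 3. Fn1 alone gave 18362 to 30348 of these sums. In Col1a1, Col1a2, Col3a1, Col5a1, Col5a2 and Tnc, Saline replicate 2 lay above every TTFM tumour and Saline replicates 1 and 3 below every one. Col3a1 had 1038, 8162 and 313 in Saline replicates 1, 2 and 3, against 2449 to 5802 in TTFM tumours. A normalized count is a count scaled to the common library size. Values for the 8 genes described here that moved by over 1.5 times without Saline replicate 2 are given both ways. Only 1 of 20 blood endothelial markers looked for was in the table, Sox17, and 0 of 5 lymphatic markers, so vessel content could not be judged apart from the genes described. Sox17, an endothelial transcription factor, had 19.6, 16.0 and 38.9 normalized counts in TTFM tumours and 14.4, 23.9 and 36.1 in Saline tumours. In bulk tumour RNA, fewer cells of a type and less RNA per cell cannot be told apart.

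None of the 8 genes passed the test between TTFM and Saline tumours. Of 627 genes tested, 0 (0%) passed edgeR's quasi-likelihood test at an adjusted p under 0.05, and 38 (6.06%) had an unadjusted p under 0.05. Among the 8 genes that smaller p was reached by 1, Pgf, which was 1.50-fold lower in TTFM tumours and was also the only one of the 8 whose groups did not overlap. The groups did not overlap in 52 of the 627 genes (8.29%), and in 27 (4.31%) with TTFM lower. Log2 fold changes of TTFM over Saline were negative for 5 of the 8 (Vegfc, Pgf, Flt1, Angpt2 and Nos3) and positive for 3 (Vegfa, Figf and Kdr). Over all tested genes, 50.1% were negative. The median was -0.16 for the 8 genes and -0.0014 for all tested genes. The median of the 8 was -0.39 when TTFM replicate 3 was left out and -0.036 when TTFM replicate 1 was.

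**Figure D1:**
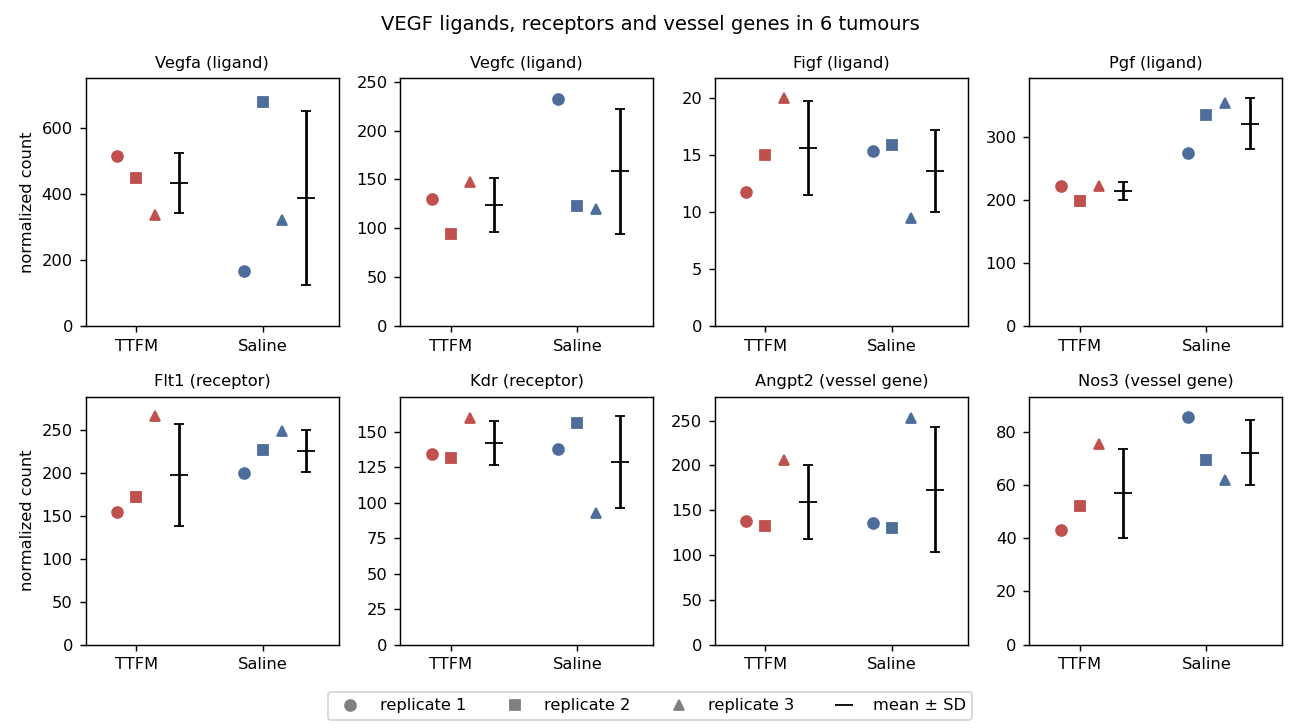
Normalized counts (vertical axes, each from 0) of the 8 genes in TTFM and Saline tumours, with a symbol for each replicate and the mean ± SD beside it. Pgf is the panel with no overlap, 197 to 222 in TTFM against 274 to 353 in Saline tumours, and Vegfa has the widest spread, in Saline tumours.

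Pgf had 221, 197 and 222 normalized counts in TTFM tumours, against 274, 334 and 353 in Saline tumours. Every TTFM value lay below every Saline value, and the TTFM values were close together. The mean was 213 ± 13.9 in TTFM and 321 ± 41.0 in Saline tumours (SD, n = 3 each). The log2 fold change was -0.59 with a standard error (SE) of 0.19 and a 95% interval of -1.03 to -0.14. Its unadjusted p of 0.0168 in edgeR's fit was number 18 in order among the 627 genes, and the adjusted p was 0.587. With 1 tumour left out the log2 fold change stayed between -0.66 and -0.50, a narrower range than for the other 7 genes.

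Vegfa had 516, 449.8 and 336 normalized counts in TTFM tumours, against 166, 680.1 and 320.3 in Saline tumours. The Saline tumours held both the highest and the lowest value, a 4.11-fold range, while the TTFM tumours spanned 1.54-fold and all lay within it. The mean was 434 ± 91.1 in TTFM and 389 ± 264 in Saline tumours (SD, n = 3 each), a log2 fold change of 0.16 (SE 0.47; 95% interval -0.93 to 1.25; edgeR adjusted p = 0.962). The value was 0.84 without Saline replicate 2 (adjusted p = 0.235) and -0.17 without Saline replicate 1 (adjusted p = 0.993). The size and direction of the Vegfa difference therefore rested on which Saline tumours were included.

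The promoters of these 2 ligand genes are shown because Pgf had the smallest p of the 8 and Vegfa the widest spread, and both are known to respond to low oxygen. They are RefSeq sequences of the 250 bases before the first-listed start, on build GRCm38.p6, from the minus strand, at chr12:85177314-85177563 for Pgf and chr17:46032378-46032627 for Vegfa. Capitals mark the core letters that hypoxia-inducible factors (HIFs) bind, searched as ACGTG and GCGTG on both strands, where both can overlap in CACGTG.
Pgf: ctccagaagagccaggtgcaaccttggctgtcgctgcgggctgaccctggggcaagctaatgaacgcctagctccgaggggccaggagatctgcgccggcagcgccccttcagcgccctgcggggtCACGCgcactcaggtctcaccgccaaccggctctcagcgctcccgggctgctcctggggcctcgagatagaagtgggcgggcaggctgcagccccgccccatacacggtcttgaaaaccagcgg
Vegfa: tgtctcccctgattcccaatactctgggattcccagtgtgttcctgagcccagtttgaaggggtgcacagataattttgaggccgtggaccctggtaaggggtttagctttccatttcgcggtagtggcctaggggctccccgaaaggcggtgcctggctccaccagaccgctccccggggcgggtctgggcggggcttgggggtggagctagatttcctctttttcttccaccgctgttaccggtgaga
The Pgf window held 1 match, GCGTG on the opposite strand (read here as CACGC), beginning 124 bases before the start, and the Vegfa window held 0. Each gene has 2 listed starts. At the other start the Pgf window held 0 matches and the Vegfa window held 2. These windows, chr12:85175983-85176232 and chr17:46025164-46025413, lie past the first-listed starts in the direction of transcription. The 2 Vegfa matches are therefore not upstream of its first-listed start. Of 32851 windows of this length in the table, 38.6% held at least 1 match, so neither result sets these promoters apart. RefSeq windows were matched for 6 of the 8 genes. Among the other 4, Flt1 held 1 match, Kdr 2, and Vegfc and Figf 0.

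Vegfc had 129.6, 94.2 and 148 normalized counts in TTFM tumours, against 232, 123 and 120.2 in Saline tumours. Saline replicate 1 alone stood above the rest, and the other Saline tumours lay within the TTFM range. Its log2 fold change was -0.36 (SE 0.33; 95% interval -1.12 to 0.40; edgeR adjusted p = 0.938), and 0.061 without Saline replicate 1. That tumour thus had the highest Vegfc and the lowest Vegfa of all 6.

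Figf was near the bottom of the measured range, with 12, 15 and 18 counts in TTFM tumours and 16, 14 and 11 counts in Saline tumours. Exact Poisson 95% intervals of these counts, which cover counting error only, reached from 5.49 to 28.4 and all overlapped. Uty, a Y-linked gene that female tissue should lack, had 4 to 12 counts in the same tumours and marks the level of unspecific signal. A difference in Figf was not detectable at this depth (log2 fold change 0.20, SE 0.36, 95% interval -0.63 to 1.03, and 0.33 without Saline replicate 2).

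The receptor gene Flt1 had 155, 172 and 266 normalized counts in TTFM tumours, against 200.3, 227 and 249 in Saline tumours. TTFM replicates 1 and 2 were below every Saline tumour and TTFM replicate 3 was above every one. The log2 fold change was -0.19 (SE 0.25; 95% interval -0.78 to 0.40; edgeR adjusted p = 0.938). It was -0.44 without TTFM replicate 3 and -0.040 without TTFM replicate 1.

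Kdr had 135, 131 and 159.8 normalized counts in TTFM tumours, against 138, 156 and 92.7 in Saline tumours. Saline replicate 3 was the low one, and the other 5 tumours lay within 131 to 159.8. Kdr stood at a log2 fold change of 0.14 (SE 0.25; 95% interval -0.45 to 0.73; edgeR adjusted p = 0.962), with -0.035 without Saline replicate 3 and 0.30 without Saline replicate 2. For both receptor genes a difference in either direction was within the error.

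Angpt2 had 137, 132 and 206 normalized counts in TTFM tumours, against 136, 129.6 and 253 in Saline tumours. In each group 2 tumours sat at 129.6 to 137 and the tumour numbered 3 was well above them. The log2 fold change was -0.13 (SE 0.33; 95% interval -0.89 to 0.64; edgeR adjusted p = 0.962), with 0.27 without Saline replicate 3 and -0.29 without Saline replicate 2. Angpt1, which encodes angiopoietin-1, had 11.8, 13.0 and 22.2 normalized counts in TTFM tumours and 41.4, 7.96 and 18.0 in Saline tumours, at or near the level of Figf. Its log2 fold change was -0.53 (SE 0.58), with 0.27 without Saline replicate 1 and -0.92 without Saline replicate 2.

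Nos3 had 43.2, 52.1 and 75.5 normalized counts in TTFM tumours, against 85.7, 69.4 and 61.8 in Saline tumours. As in Flt1, TTFM replicates 1 and 2 lay below every Saline tumour, and TTFM replicate 3 lay among them. Nos3 stood at a log2 fold change of -0.35 (SE 0.31; 95% interval -1.08 to 0.38; edgeR adjusted p = 0.938). It was -0.58 without TTFM replicate 3 and -0.17 without Saline replicate 1.

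**Figure D2:**
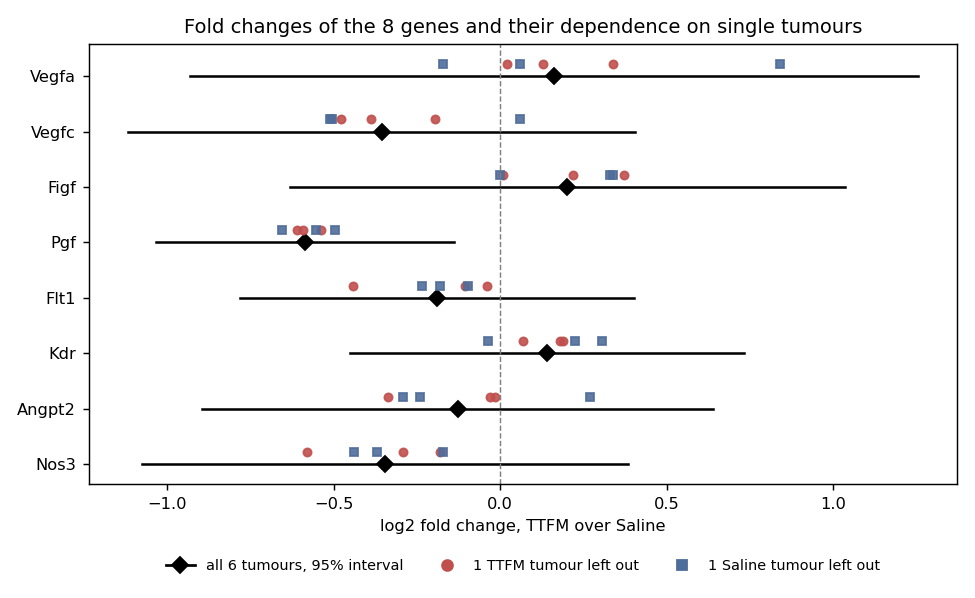
Log2 fold changes of TTFM over Saline (horizontal axis) for the 8 genes, as diamonds with 95% intervals from edgeR's fit of all 6 tumours; circles and squares are the same value with 1 TTFM or 1 Saline tumour left out. The interval of Pgf, -1.03 to -0.14, is the one that does not reach 0, before any adjustment for the number of genes, and the squares of Vegfa spread from -0.17 to 0.84.

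Within the TTFM group, TTFM replicate 3 had the highest normalized count of its group for 7 of the 8 genes, all but Vegfa, for which it was lowest. It was the highest TTFM tumour for 274 of the 627 tested genes (43.7%). In the counts as deposited it was highest for 6 of the 8, although its total was the lowest of all tumours. For Pgf the lead was slight, 222 against 221 in TTFM replicate 1. The scaling factor and total of TTFM replicate 3 move with this pattern, and their part in it was not tested. In Saline tumours the highest value was spread over all 3, with 2 genes in replicate 1 (Vegfc and Nos3), 3 in replicate 2 (Vegfa, Figf and Kdr) and 3 in replicate 3 (Pgf, Flt1 and Angpt2).

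**Figure D3:**
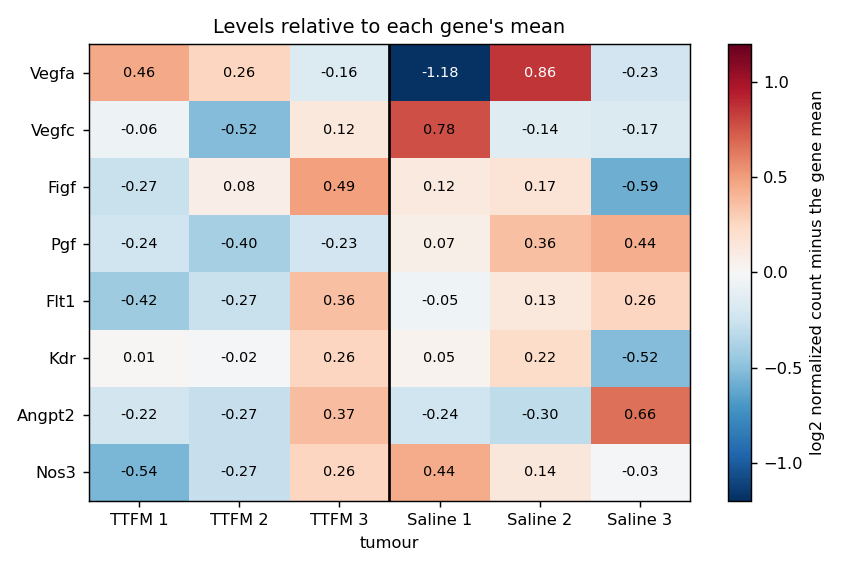
Log2 normalized count minus the gene's mean over 6 tumours, by gene (rows) and tumour (columns), red above and blue below the mean. Vegfa runs from -1.18 in Saline replicate 1 to 0.86 in Saline replicate 2, and Vegfc has its highest value, 0.78, in Saline replicate 1.

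The SD of log2 values was larger in Saline than in TTFM tumours for 6 of the 8 genes, the exceptions being Flt1 and Nos3. Over all tested genes it was larger in Saline for 56.8%. For Vegfa the SD was 0.32 in TTFM and 1.02 in Saline tumours, and for Flt1 0.41 in TTFM and 0.16 in Saline tumours. The median SD over all tested genes was 0.33 in TTFM and 0.36 in Saline tumours.

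Ratios of 2 genes within a tumour do not depend on how tumours are scaled to each other, and 6 were compared by two-sided exact permutation tests, which with 3 against 3 cannot go below 0.1. None separated the groups, and the smallest exact p was 0.2, adjusted to 0.4 over the 6. These are ratios of counts, so they compare tumours and not the abundance of one transcript with another. The ratio Vegfa/Pgf was 2.34, 2.28 and 1.51 in TTFM tumours, against 0.604, 2.03 and 0.908 in Saline tumours. Saline replicate 2 was the one Saline tumour inside the TTFM range (difference of mean log2 ratios 0.95, exact permutation p = 0.2). The ratio Nos3/Kdr was 0.321, 0.397 and 0.472 in TTFM tumours, against 0.622, 0.445 and 0.667 in Saline tumours. Again only Saline replicate 2 lay within the TTFM range (difference -0.54, exact permutation p = 0.2). The difference of log2 Vegfa/Pgf was 1.44 and that of Nos3/Kdr -0.72 without that tumour, each with an adjusted exact permutation p of at least 0.3, where 3 against 2 allows no raw p below 0.1.

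The receptor ratio Flt1/Kdr averaged 1.38 ± 0.263 in TTFM and 1.87 ± 0.709 in Saline tumours (SD, n = 3 each; exact permutation p = 0.4). Saline replicate 3, with the lowest Kdr, had a ratio of 2.69, and the other 5 tumours had 1.15 to 1.67. Angpt2/Kdr showed the same single high tumour, at 2.73, against 0.832 to 1.29 in the other 5 (exact permutation p = 1). Vegfa/Kdr averaged 3.12 ± 0.907 in TTFM and 3.01 ± 1.63 in Saline tumours (SD, n = 3 each; exact permutation p = 0.9). Vegfc/Figf averaged 8.22 ± 2.47 in TTFM and 11.8 ± 3.75 in Saline tumours (SD, n = 3 each; exact permutation p = 0.2). The low counts of Figf are the denominator here.

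**Figure D4:**
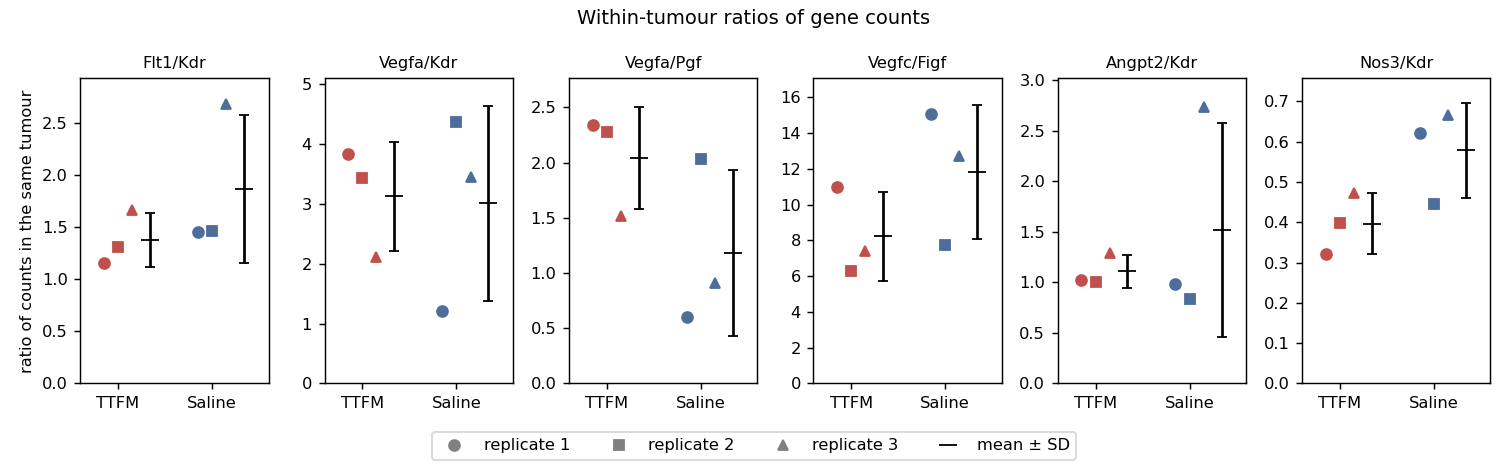
Ratios of the deposited counts of 2 genes in the same tumour (vertical axes, each from 0), for TTFM and Saline tumours, with a symbol for each replicate and the mean ± SD beside it. For Vegfa/Pgf and Nos3/Kdr, Saline replicate 2 (square) is the Saline tumour that lies within the TTFM range.

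Vegfb, the remaining VEGF ligand gene in the table, had 327, 263 and 152 normalized counts in TTFM tumours, against 153, 196 and 144 in Saline tumours. TTFM replicates 1 and 2 were above every Saline tumour and TTFM replicate 3 was among them. The log2 fold change was 0.59 (SE 0.31; edgeR adjusted p = 0.864), and 0.34 without TTFM replicate 1. Its product binds the Flt1 receptor, as that of Pgf does, and the 2 genes stood on opposite sides, Vegfb at 0.59 and Pgf at -0.59. Neither passed the test.

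Of the vessel-related gene lists set beside the 8 genes, 0 tested members passed edgeR's test in either direction. Of 19 hypoxia sensing and HIF target genes looked for, 4 were in the table and tested. All 4 were negative, against 50.1% of all tested genes, with a median log2 fold change of -0.68. That median was -0.81 when TTFM replicate 3 was left out and -0.21 when Saline replicate 1 was. Ddit4, a stress-induced inhibitor of mTOR complex 1 that is a HIF target, averaged 602 ± 58.3 in TTFM and 1271 ± 420.3 in Saline tumours (SD, n = 3 each; log2 fold change -1.08). Its groups did not overlap, and its edgeR adjusted p was 0.525 with all tumours and 0.0429 without Saline replicate 2, when 14 of 637 tested genes (2.2%) passed and 0 of the 8. Bnip3, another HIF target, stood at -0.068, and at 0.076 without Saline replicate 2. Vhl, whose product targets HIF for degradation, stood at -0.28, with -0.15 without TTFM replicate 1 and -0.52 without TTFM replicate 3. Arnt2, a partner of HIF proteins, stood at -1.17, but its TTFM mean of 6.53 was at the level of Uty. Its counts were under 20 in every tumour, so raising counts under 20 to 20 made all tumours equal. The 0.066 it then had was the median over all genes in that setting and no measure of Arnt2. Vegfa itself, a textbook HIF target, stood at 0.16.

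Among angiogenesis inhibitors, 1 of 2 genes present was tested, Thbs1, which encodes the matrix protein thrombospondin 1. It had 1051, 1049.8 and 1705 normalized counts in TTFM tumours, against 2596, 2067 and 2892 in Saline tumours. The groups did not overlap (log2 fold change -0.99, SE 0.28, edgeR adjusted p = 0.525). Other angiogenic growth factors and cytokines had 10 tested members, 5 positive and 5 negative, with a median of -0.024. Leaving out Saline replicate 3 put it at -0.17, and leaving out Saline replicate 2 at 0.25. The chemokine gene Cxcl5 stood at -1.65 (SE 0.54). Hgf, which encodes hepatocyte growth factor, stood at 0.19, with 0.65 without Saline replicate 2 and -0.049 without Saline replicate 3. The cytokine gene Il6 stood at -0.38, with 0.024 without Saline replicate 2 and -0.61 without Saline replicate 3. The growth factor gene Egf stood at -0.21. Il6 and Egf had mean counts of 13.7 and 11.5. With counts under 20 raised to 20, Il6 stood at 0.042, with only Saline replicate 2 (23.9 normalized counts) above that floor. Egf was under 20 in every tumour, so the floor made its tumours equal and could not measure it.

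Notch genes of vessels had 6 tested members, 3 on each side, with a median of 0.0074, among them the endothelial ligand gene Dll4 at -0.25 (-0.42 without TTFM replicate 3 and -0.059 without Saline replicate 1). Leaving out TTFM replicate 3 put the median at -0.28, and leaving out TTFM replicate 1 at 0.064. Ephrin genes had 4 tested members, 2 on each side, among them the receptor gene Epha2 at -0.45 (SE 0.23) and the ligand gene Efna5 at -0.44. Efna5 stood at -0.73 without TTFM replicate 3, -0.67 without Saline replicate 2 and -0.16 without Saline replicate 1.

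Effectors known to act downstream of the VEGF receptors had 38 tested members of 42 present, 22 positive and 16 negative, with a median of 0.051. The groups did not overlap in 6 of the 38, against 52 of all 627 tested genes (8.29%), either direction counted. Nfatc1, a calcium-regulated transcription factor, had 111, 115 and 123 normalized counts in TTFM tumours, against 165, 151 and 239.6 in Saline tumours (log2 fold change -0.67, SE 0.24, and -0.43 without Saline replicate 3). Nras, a small GTPase of the MAP kinase cascade, had 872, 796 and 722 in TTFM tumours, against 638, 580.0 and 541 in Saline tumours (log2 fold change 0.44, SE 0.18). Both separated the groups without passing edgeR's test. Hspb1, a heat shock protein that regulates actin, stood at -1.10 and Pik3r2, a regulatory subunit of PI3 kinase, at 0.51, and Hspb1 at -0.53 without Saline replicate 3.

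**Figure D5:**
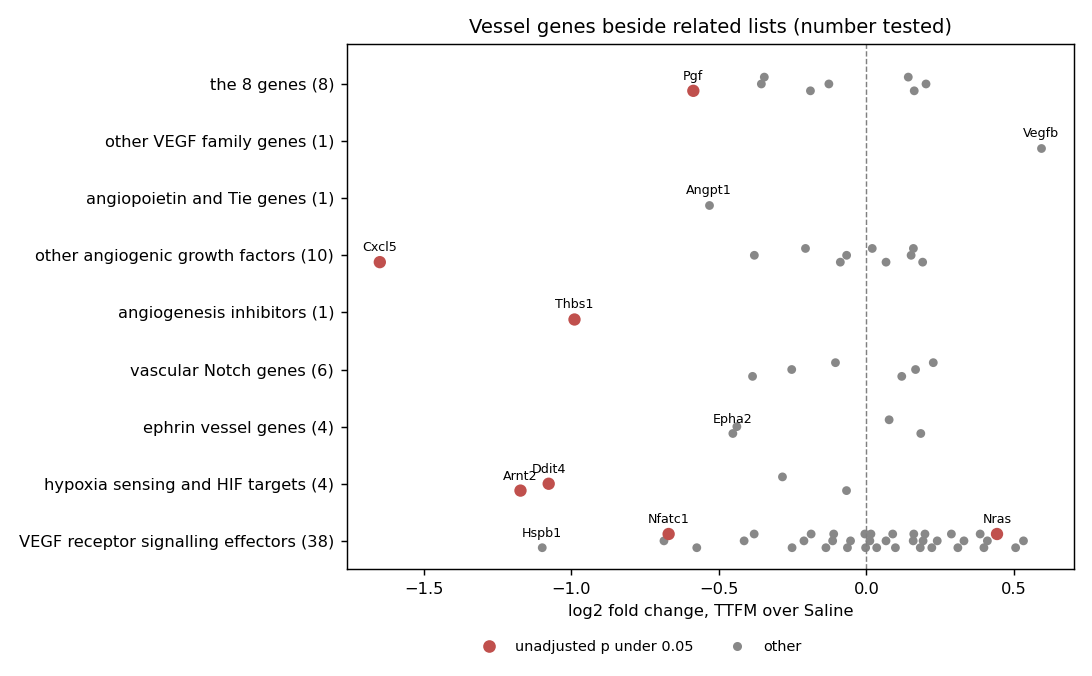
Log2 fold changes of TTFM over Saline (horizontal axis) of the 8 genes (top row) and of the tested genes of 8 related lists (other rows, number tested in brackets); red points have an unadjusted edgeR p under 0.05 and grey points do not. The 8 genes lie between -0.59 and 0.20, and 0 points pass the test after adjustment.

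Markers of other cell types were also set side by side in the 2 groups. The 2 macrophage and monocyte genes summed to 603 to 712 normalized counts in TTFM and 656 to 1183 in Saline tumours, but stood on opposite sides. Cd14, a receptor for lipopolysaccharide, had 157, 145 and 179.8 normalized counts in TTFM tumours, against 803, 154 and 640.6 in Saline tumours, with Saline replicate 2 among the TTFM values. Its log2 fold change was -1.73 (edgeR adjusted p = 0.582), and -2.16 without Saline replicate 2 (adjusted p = 0.00890). Csf1r, the receptor gene of macrophage colony-stimulating factor, stood at 0.41, with 0.71 without Saline replicate 2 and 0.15 without Saline replicate 3. The 5 granulocyte genes present, of 10 looked for, summed to 1587 to 6047 in TTFM and 3698 to 7014 in Saline tumours. Mmp9 alone gave 5082, 4689 and 996 of these sums in TTFM tumours and 1164, 5510 and 468 in Saline tumours. The sums therefore follow Mmp9 in several tumours. The median log2 fold change of the 5 genes was -1.62, with 4 of 5 negative and 3 at an unadjusted edgeR p under 0.05. These 3 were Il1b at -1.64 and Il1r2 at -1.62, whose groups did not overlap, and Csf3r at -1.66, and none passed edgeR's test with all 6 tumours (adjusted p = 0.525 each). Without Saline replicate 2, Il1b and Csf3r passed (adjusted p = 0.0311 and 0.0346) and Il1r2 did not (0.0700). Csf3r stood at -1.09 without Saline replicate 3. Mpo, the other negative gene, had a mean count of 21. It stood at -0.86, with -0.085 without Saline replicate 2 and -1.46 without TTFM replicate 3. Mmp9, named after its values were seen, stood at 0.59, and at 2.14 without Saline replicate 2. The 5 epithelial genes summed to 5541 to 10512 in TTFM and 7067 to 8993 in Saline tumours, and the 2 pericyte genes, Pdgfrb and Notch3, to 96.2 to 171 in TTFM and 107 to 147 in Saline tumours. The lowest value over all 750 genes was 1 in every tumour, so the absence of a value of 0 says nothing of these markers, and whether zeros were set to 1 before deposit is unknown. Vegfa was highest in Saline replicate 2, the tumour with the highest fibroblast and matrix sum. In these sums the other tumours did not follow this order. Among TTFM tumours Vegfa was highest in replicate 1 (516), which had the lowest fibroblast and matrix sum of that group (48090). The order of TTFM tumours differed between the genes summed. Fn1 gave 18362, 26308 and 30348 of the sums, and Col1a2, Col5a1 and Pdgfra were also lowest in TTFM replicate 1. Col1a1, Col3a1, Col5a2 and Tnc were lowest in TTFM replicate 3, which had the lowest Vegfa of that group (336). The lowest Vegfa was in Saline replicate 1 (166), and the lowest sum in Saline replicate 3 (33761). The part of cell composition in the values of Vegfa, Pgf and the other genes was not tested.

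For each of the 8 genes the 3 tested genes of most similar pattern were found by Pearson's r of log2 normalized counts over the 6 tumours, given as a description of 6 points that share 1 scaling. Pgf was most like Flnc (0.94), Nkd1 (0.93) and Gadd45g (0.88), of which Gadd45g, a stress-induced gene, stood at -1.07 and Flnc, which encodes the actin crosslinker filamin C, at -0.39. Nos3 was most like Flna (0.95), which encodes filamin A, then Polb (0.95) and Nr4a3 (0.94). Vegfa was most like Rad21, a cohesin subunit gene (0.98), Cdkn1c (0.98) and Bax (0.97), with Rad21 at 1801, 1816 and 1622 normalized counts in TTFM and 1181, 1934 and 1506 in Saline tumours. Vegfc was most like Acvr2a (0.93), Plce1 (0.90) and Col2a1 (0.89), and Figf like Spop (0.98), Wif1 (0.97) and Il3ra (0.97). Flt1 was most like Gnas (0.96), Nr4a1 (0.94) and Hsp90b1 (0.93), and Kdr like Fzd2 (0.96), the macrophage receptor gene Csf1r (0.95) and Mapk10 (0.95). Angpt2 was most like Nf1 (0.98), Alkbh3 (0.97) and Rad52 (0.95). None of the 8 genes was among the 3 most similar of another.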

How the data were processed

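Total RNA was measured for 750 tumour-related genes in 3 TTFM and 3 Saline tumours. The authors deposited 1 table, read as whole-number counts per gene that were not normalized. This reading rests on the values, which are whole and sum to different totals. No source used here names the platform, the counting steps or a background subtraction. Depth was 333515 to 449460 counts per tumour. Replicates differed by more than sampling noise (chi-square over genes 7.52 to 150.3 times its degrees of freedom).

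Groups came from the sample titles. The 627 genes whose mean count reached 10, all 8 vessel genes included, were scaled with trimmed-mean factors (TMM) and tested across all genes, TTFM against Saline, with the quasi-likelihood test of edgeR 4.0.16 in R 4.3.3, adjusted by Benjamini-Hochberg with a threshold of 0.05. The SE was taken from the log2 fold change and F, and 95% intervals used the fit's degrees of freedom. The method was tested on simulated counts with larger changes than those of the 8 genes and less spread between samples than in these data. That test does not show how well the method detects changes here. Alternatives were other scalings and filters, DESeq2 1.42.0, limma 3.58.1 with trend, a floor of 20 counts, a replicate block and 1 tumour left out. Named genes are the 8, up to 4 of smallest p in each list, and the 3 most similar to each of the 8. The genes and lists were chosen with earlier results of these data known. Symbols matched RefSeq (GRCm38.p6), 7 as current symbols and Figf as a synonym of Vegfd.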

Additional observations from a re-analysis of the deposited data

How the results depend on the processing

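The count of vessel genes past the threshold was 0 of 8 under each alternative run, although with a mean count of at least 50 Figf was not tested. Over all genes it was 0 except for 1 with DESeq2 and, with 1 tumour left out, 0 to 14, the 14 without Saline replicate 2. The cause was not tested. None of the 6 ratios passed under any alternative. Directions of Vegfc, Vegfa, Kdr and Angpt2 turned with 1 Saline tumour left out. Over the 6 tumours left out in turn, the log2 fold change ran from -0.17 to 0.84 for Vegfa, -0.51 to 0.061 for Vegfc, -0.035 to 0.30 for Kdr and -0.34 to 0.27 for Angpt2. The log2 ratio difference ran from -0.36 to 0.57 for Vegfa/Kdr and -0.58 to 0.28 for Angpt2/Kdr. Scalings, tests, filters, floor and block turned no direction among the 8 genes. For Figf the floor could not test this, since all its counts were under 20 and became equal. Over these settings Pgf ran from -0.63 to -0.52, with an adjusted p of at least 0.581, and Vegfa from 0.16 to 0.37. Without a filter on low values the median over all genes was 0.034, against -0.0014. With the replicate block Pgf stood at -0.58 (edgeR adjusted p = 0.714) and 0 genes passed. Deviations of samples of the same number from their group means correlated across genes at -0.21, 0.42 and 0.26. For samples of different numbers the correlations ran from -0.42 to 0.39. These values do not settle whether tumours were paired, and the numbers were not taken to pair them. Low counts limit what Figf, Angpt1, Arnt2, Il6, Egf and other genes near 20 counts can show, and 3 tumours a group limit the rest.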
